A study of Mus musculus with 4 samples.

Results

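The corticotropin-releasing hormone (CRH) and urocortin genes were followed in the hypothalamus of tumour-bearing mice across 7 genes out of the 19938 that the array table names singly. They comprise the peptide genes Crh, Ucn, Ucn2 and Ucn3, the receptor genes Crhr1 and Crhr2, and Crhbp, the gene of the secreted binding protein. They were taken by symbol among probe sets with exactly 1 gene symbol. Each gene had 1 such probe set and shared 0 others with a second symbol, so no choice between probe sets was needed. Their probe sets were 10497417 (Crh), 10529077 (Ucn), 10589327 (Ucn2), 10407431 (Ucn3), 10381753 (Crhr1), 10544913 (Crhr2) and 10411215 (Crhbp).

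CRH is released by parvocellular neurons of the paraventricular nucleus and drives pituitary secretion of adrenocorticotropic hormone, which in turn drives glucocorticoid release from the adrenal cortex. Glucocorticoids feed back on the paraventricular nucleus and the pituitary. The urocortins are relatives of CRH: urocortin 1 binds both receptors, while urocortins 2 and 3 prefer CRHR2, and CRH prefers CRHR1. Both receptors belong to the class B G protein-coupled receptors and act mainly through cyclic AMP. CRH and the urocortins restrain feeding when given into the brain.

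The data came from the pilot part of a study of hypothalamic appetite regulators in cancer cachexia, the wasting that accompanies some tumours. Male CDF1 mice, a cross of BALB/c and DBA/2, aged 10 to 11 weeks, received C26 colon adenocarcinoma cells under the skin of the right flank or a sham injection of 0.2 ml of buffered saline, and the hypothalamus was taken on day 20. The control array carried RNA pooled from 4 sham-injected mice. The array of 500000 cells (0.5M) carried RNA of 4 mice, that of 1000000 cells (1M) RNA of 3 mice, and that of 2000000 cells (2M) RNA of 1 mouse, according to its source description, while its title says pooled. All mice were kept on the same AIN93M-based diet, and all tumours came from the same cell line. With 1 array per group, no difference at a given cell number has a replicate check. In tissue RNA, fewer cells of a type and less transcript per cell cannot be told apart.

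Values are log2 expression after RMA, the authors' background correction, quantile alignment and probe set summary. The arrays resembled each other closely, with correlations of 0.993 to 0.997 across genes. The number of arrays limits the precision. A filter on low values kept the 11963 genes whose mean over the 4 arrays reached the 40th percentile, 6.59 log2. Crhr1, Crhr2 and Crhbp passed it. The 4 peptide genes did not, so they were outside the filtered test and were tested only in a fit without the filter. Of the genes of other peptides made in paraventricular neurons, 12 of 13 passed, as did 13 of 14 genes of the paraventricular transcription factor list, among them Sim1 and Otp, which define the lineage. Some marker genes of neighbouring tissues differed between arrays, and not all in 1 direction within a list. The pituitary genes Gh and Prl exceeded their control values by 4.68 and 3.85 log2 at 0.5M, by 0.78 and 0.55 at 1M and by 0.72 and 0.56 at 2M. Tph2, the serotonin synthesis enzyme of the raphe, differed from control by -0.85, -1.16 and -1.03 log2 in order of cell number. In the pituitary list 6 of 8 genes were above control on all 3 arrays and 2 below. In the midbrain and raphe list 2 of 6 were above and 4 below. Over all genes the shares were 33.2% above and 22.5% below. The part of such tissue in the arrays was not tested.

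The RefSeq promoter table held 5 of the 7 members, with no entry for Crh or Ucn2. The 250 bases before the start site are printed for 3 of them. Ucn3 was the member higher than control on every tumour-bearing array, Crhr1 the member lower on every one, and Ucn the member whose window held a full cyclic AMP response element, TGACGTCA, shown in capitals. Each is read 5′ to 3′ along the gene's own strand in assembly GRCm38.p6. Ucn lies at chr5:31138896-31139145 on the minus strand, Ucn3 at chr13:3945350-3945599 on the minus strand and Crhr1 at chr11:104132531-104132780 on the plus strand.
Ucn: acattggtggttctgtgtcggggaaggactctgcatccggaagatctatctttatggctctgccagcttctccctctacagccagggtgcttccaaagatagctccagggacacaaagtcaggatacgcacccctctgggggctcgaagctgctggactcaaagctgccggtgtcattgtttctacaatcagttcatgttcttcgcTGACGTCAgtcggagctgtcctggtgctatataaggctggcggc
Ucn3: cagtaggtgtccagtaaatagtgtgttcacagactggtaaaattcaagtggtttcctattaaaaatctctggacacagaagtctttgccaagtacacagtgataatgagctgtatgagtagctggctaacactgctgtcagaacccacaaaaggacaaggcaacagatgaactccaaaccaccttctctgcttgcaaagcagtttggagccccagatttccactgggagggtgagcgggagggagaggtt
Crhr1: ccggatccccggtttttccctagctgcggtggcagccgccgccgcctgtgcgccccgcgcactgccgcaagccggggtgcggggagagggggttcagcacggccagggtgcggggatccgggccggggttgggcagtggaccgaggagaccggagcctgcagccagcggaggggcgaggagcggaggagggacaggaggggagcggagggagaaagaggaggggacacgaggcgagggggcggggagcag

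The element in Ucn began 44 bases before the start site. It reads the same on both strands and was present in 508 of 32851 windows of this length, or 1.55%. Searched on both strands, its 5-base core TGACG, which lies within the full element, was found in 17.8% of windows and, among members, in Ucn and, 64 bases before the start, in Crhbp. The TATA box letters TATAAA, searched on both strands, occurred in 12.4% of windows and, among members, in Crhr2, 39 bases before the start. Other forms of the TATA box were not searched, so the other members are not shown to lack one. These are matches of letters, and no binding was measured.

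Crh, which encodes CRH itself, was high on the array of 2M and low on the others. It stood at 5.28 log2 in the control, 5.07 at 0.5M, 5.09 at 1M and 5.96 at 2M. The arrays of 0.5M and 1M differed by 0.01 log2 and both lay below the control, by 0.21 and 0.20 log2. Of all genes, 11.2% and 11.7% lay at least as far below control on those arrays. The array of 2M, a single mouse, lay 0.67 log2 above control, a 1.59-fold difference, and 0.87 log2 above 1M, a 1.83-fold difference. At 2M Crh was the 1 member of 7 at least 0.5 log2 from control, where 3% of all 19938 genes were that far either way and 1.78% that far above. Among the genes below the filter, 2.58% were at least 0.5 log2 above control at 2M. In all, 92 genes, 0.461% of the total, were at least as far above control at 2M as Crh.

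The array of 2M set Crh apart from each of the other 3 arrays, since the control was the highest of those. Of 19938 genes, 14, or 0.0702%, stood at least 0.5 log2 above their highest other array at 2M, and Crh was the 5th of them by size. The count was made only for the array of 2M and upward, the pattern of Crh itself, so it describes Crh and tests nothing. Whether the value of Crh at 2M belongs to the cell number or to the 1 mouse cannot be told apart. The mean over the 3 tumour-bearing arrays was 0.09 ± 0.51 log2 from control (SD, n = 3 arrays). In the fit without the filter, limma gave a 95% interval of -0.76 to 0.93 log2 for this difference (adjusted p = 0.966). The slope was 0.37 ± 0.13 log2 per 1000000 cells (SE), with an unadjusted p of 0.0254 and an adjusted p of 0.783 in limma. Of all genes, 6.12% had an unadjusted p under 0.05 in this fit. Without the array of 2M the slope was -0.20 and the mean difference -0.20 log2, so the sign of both rests on that array.

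**Figure D1:**
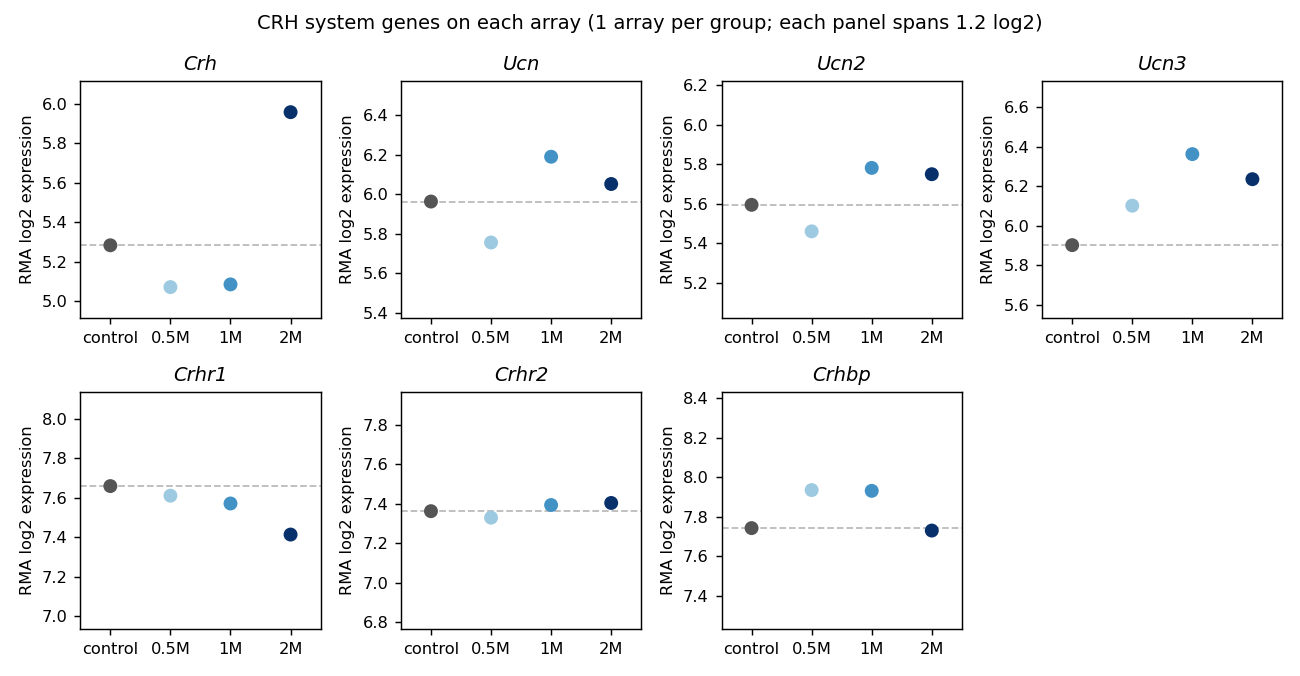
RMA log2 expression of the 7 genes on the control, 0.5M, 1M and 2M arrays, with 1 point per array, a dashed line at the control value and the same 1.2 log2 span in every panel. Crh stands at 5.96 on the 2M array and between 5.07 and 5.28 on the others, Ucn3 lies above control on each tumour-bearing array, and Crhr1 steps down from 7.66 to 7.41.

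The genes nearest to Crh in pattern were Arsi, an arylsulfatase gene, Ctse, the cathepsin E gene, Pramel15 and the olfactory receptor gene Olfr213. Likeness was measured by the Euclidean distance between the 3 differences from control. The distances were 0.256, 0.274, 0.28 and 0.285 log2, against a length of 0.733 log2 for the differences of Crh itself. Arsi differed from control by -0.10, -0.19 and 0.44 log2 in order of cell number, so its excess at 2M was smaller than that of Crh. All 4 lay below the filter, as Crh did.

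Ucn, Ucn2 and Ucn3 encode the 3 urocortins. Ucn, expressed most strongly in the centrally projecting Edinger-Westphal nucleus of the midbrain, stood at 5.96 log2 in the control, 5.76 at 0.5M, 6.19 at 1M and 6.05 at 2M. Ucn2 stood at 5.59 in the control, 5.46 at 0.5M, 5.78 at 1M and 5.75 at 2M. Both were lowest at 0.5M and highest at 1M, with the control between. Ucn was -0.21, 0.23 and 0.09 log2 from control and Ucn2 -0.13, 0.19 and 0.15, none of them reaching 0.5. The raphe and midbrain marker list had median differences of -0.23, -0.37 and -0.32 log2 over 6 genes, and a mean level of 7.22 log2 in the control against 6.97, 6.83 and 6.94. The part of midbrain tissue in the Ucn values was not tested.

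Ucn3, expressed in the perifornical hypothalamus and the medial amygdala, was the 1 member of 7 above control on all 3 tumour-bearing arrays. Its level was 5.90 log2 in the control, 6.10 at 0.5M, 6.36 at 1M and 6.24 at 2M. The differences were 0.20, 0.46 and 0.33 log2, with the array of 1M highest rather than that of 2M. Their mean was 0.33 ± 0.13 log2 (SD, n = 3 arrays), a 1.26-fold difference. Of all genes, 33.2% were above control on all 3 arrays, so the position of 1 in 7 members is not above the background. In limma without the filter the 95% interval was 0.01 to 0.66 log2, with an unadjusted p of 0.0473 and an adjusted p of 0.662, so Ucn3 did not pass. Its trend of 0.16 ± 0.09 log2 per 1000000 cells (SE) did not pass either (limma adjusted p = 0.818).

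Low values shifted as a group on some arrays, and the peptide genes lie among them. The median difference of the 7975 genes below the filter was -0.03, 0.14 and 0.07 log2 in order of cell number, against 0.01, 0.04 and 0.01 for the genes past it. The order of those medians, lowest at 0.5M and highest at 1M, is also the order of Ucn, Ucn2 and Ucn3 among the tumour-bearing arrays. At 0.5M, where the median was -0.03, Ucn3 was 0.20 log2 above control. The part of this shift in the urocortin values was not tested. After cyclic loess, an alignment of the arrays that depends on level, the median of the low genes at 1M was 0.04 log2. Ucn then lay 0.11 and Ucn2 0.06 log2 above control at 1M. The differences of Ucn3 were then 0.22, 0.35 and 0.27 log2 in order of cell number, and those of Crh -0.19, -0.32 and 0.60.

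**Figure D2:**
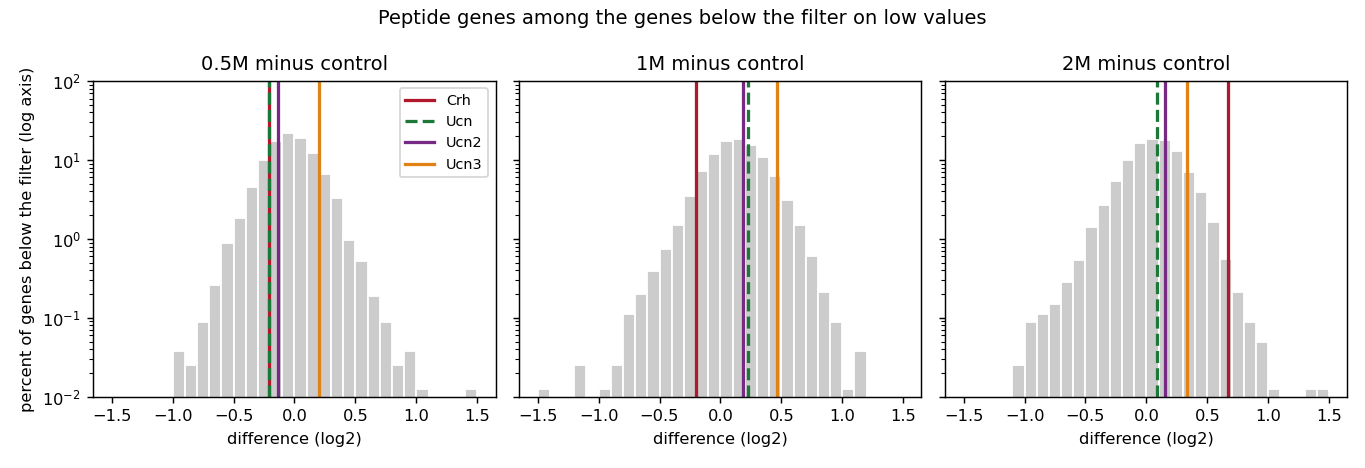
Percent of the 7975 genes below the filter in each 0.1 log2 bin of the difference from control, on a log axis, for 0.5M, 1M and 2M, with differences beyond 1.5 log2 in the end bins and vertical lines at the 4 peptide genes. Crh at 2M lies in the upper tail, while the urocortin genes lie within the body of each distribution; Crh and Ucn coincide near -0.21 at 0.5M.

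The receptor and binding protein genes passed the filter, and none of them lay as far as 0.5 log2 from control on any array. Crhr1, the receptor gene of pituitary corticotrophs and of many forebrain neurons, stood at 7.66 log2 in the control, 7.61 at 0.5M, 7.57 at 1M and 7.41 at 2M. It was the 1 member that stepped down with each larger cell number, an order shown by 3.7% of all genes, and the 1 member below control on all 3 arrays, where 22.5% of all genes were. The differences were -0.05, -0.09 and -0.25 log2, and no step between neighbouring cell numbers exceeded 0.16. Their mean was -0.13 ± 0.10 log2 (SD, n = 3 arrays), with a 95% interval of -0.39 to 0.14 and an adjusted p of 0.688 in limma. The slope was -0.12 ± 0.06 log2 per 1000000 cells (SE; limma unadjusted p = 0.0763, adjusted p = 0.779). Without the array of 2M the mean difference was -0.07 log2.

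Crhr2, the receptor gene of the ventromedial hypothalamus and the choroid plexus, varied least of the 7. It stood at 7.36 log2 in the control, 7.33 at 0.5M, 7.39 at 1M and 7.40 at 2M, a range of 0.07 log2. The 95% interval of its mean difference ran from -0.21 to 0.23 log2 in limma (adjusted p = 0.97). As folds, the bounds of that interval were 0.866 and 1.18. Choroid plexus markers had medians of -0.03, -0.12 and -0.08 log2 over 8 genes.

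Crhbp, whose protein binds CRH and urocortin 1 and limits their access to the receptors, was above control at 0.5M and 1M only. It stood at 7.74 log2 in the control, 7.94 at 0.5M, 7.93 at 1M and 7.73 at 2M. The array of 2M thus lay 0.20 log2 below that of 1M and 0.01 log2 below control. At 0.5M and 1M, where Crhbp was above control, Crh was below it, and a relation between them was not tested. The mean difference was 0.12 ± 0.12 log2 (SD, n = 3 arrays), with a 95% interval of -0.16 to 0.40 and an adjusted p of 0.719 in limma. Its slope was -0.03 log2 per 1000000 cells (limma adjusted p = 0.965) and 0.19 without the array of 2M. The cortical, hippocampal and amygdalar markers, from regions where Crhbp is also expressed, had medians of -0.05, 0.18 and 0.05 log2 over 8 genes. Of these, 3 were above control on all 3 arrays and 2 below, where 33.2% and 22.5% of all genes were. Slc17a7, a vesicular glutamate transporter gene, was -0.56, -0.59 and -0.35 log2 from control, while the transcription factor genes Tbr1 and Fezf2 were 0.49, 0.30 and 0.43 and 0.01, 0.41 and 0.33 log2 above. The part of such tissue was not tested.

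**Figure D3:**
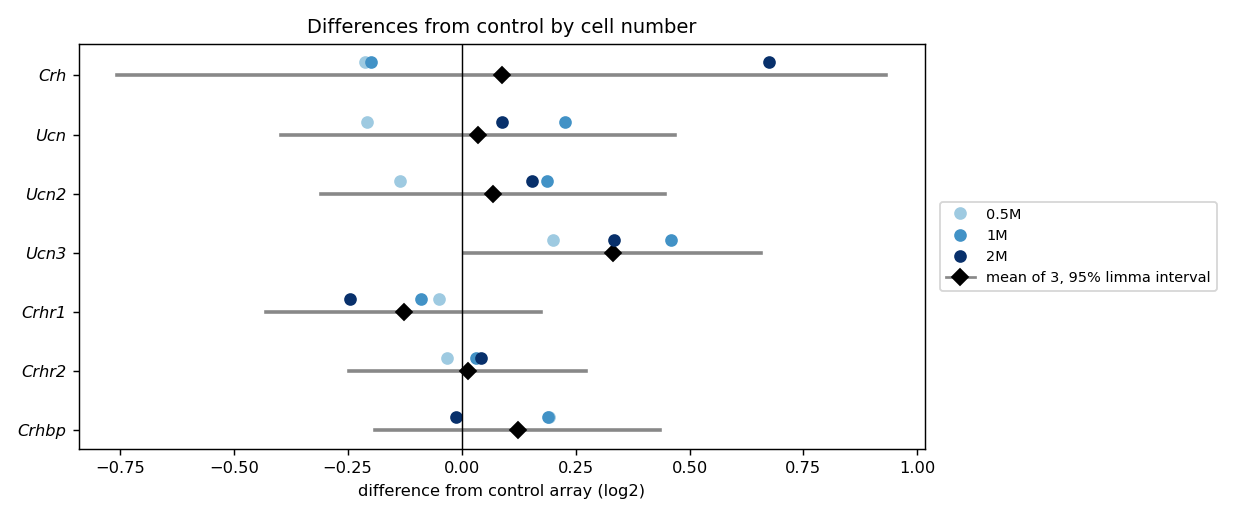
Difference of each gene from the control array in log2, with a point for each cell number and, below it, a diamond at the mean of the 3 arrays with its 95% interval from limma without the filter. The interval of Crh is the widest, from -0.76 to 0.93, that of Ucn3 runs from 0.01 to 0.66, and those of the other genes span 0.

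With the tumour-bearing arrays set against the control array, 0 of the 3 members past the filter passed limma and 0 had an unadjusted p under 0.05. Over all genes past the filter 6 passed, or 0.0502%, and 10.8% had an unadjusted p under 0.05. Without the filter, 0 of 7 members passed, where 0.00502% of all genes did, and 1, Ucn3, had an unadjusted p under 0.05, against 7.52% of the 19938 genes. In the trend with cell number 0 members passed, 0 genes passed over the whole table, or 0%, and 6.52% of genes past the filter had an unadjusted p under 0.05. At 0.5M and 1M, 0 of 7 members lay at least 0.5 log2 from control, against 1.39% and 4.8% of all genes. The median of the members' mean differences was 0.07 log2, and that of all genes 0.03.

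The genes around CRH were described by 8 further lists, none of which had a member that passed limma in either test. Differences of single genes are given in order of cell number. Over all 19938 genes, 33.2% were above control on all 3 arrays and 22.5% below, and 10.8% of the genes past the filter had an unadjusted p under 0.05 in the tumour comparison. Transcription factors and coactivators of the paraventricular nucleus and of Crh transcription had a median of 0.11 log2. Of 14, 7 were above control on all 3 arrays and 1 below. In the tumour comparison 4 of the 13 tested had an unadjusted limma p under 0.05, and in the trend 0. Pou3f2, a POU factor that CRH neurons need, was 0.44, 0.80 and 0.54 log2 above control (limma adjusted p = 0.375). Otp, a homeobox factor of the same lineage, was 0.29, 0.46 and 0.37 log2 above (limma adjusted p = 0.375). Crtc1, a coactivator of CREB, was 0.27, 0.49 and 0.30 log2 above (limma adjusted p = 0.39). The order of these 3 genes, highest at 1M, is that of Ucn3 and not that of Crh.

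Other peptides of paraventricular neurons had a median of 0.20 log2, with 8 of 13 above control on all 3 arrays and 2 below (33.2% and 22.5% of all genes). In the tumour comparison 5 of 12 tested had an unadjusted limma p under 0.05 (10.8% of all), and in the trend 0 did. Oxt exceeded its control value by 0.79, 0.81 and 0.62 log2 in order of cell number, and Avp, the gene of vasopressin, which acts with CRH on corticotrophs, by 0.50, 0.56 and 0.55 (limma adjusted p = 0.289 and 0.313). Vip, below the filter, was 0.48, 0.32 and 0.50 log2 above. Avp and Oxt were thus above control at 0.5M and 1M, where Crh was below it, and a relation to Crh was not tested. Genes of peptide processing and release had a median of 0.02 log2, with 2 of 10 above and 1 below on all 3 arrays. In the tumour comparison 0 had an unadjusted limma p under 0.05. In the trend 1 did, Vgf (limma unadjusted p = 0.0181, adjusted p = 0.732), against 6.52% of genes past the filter. Pcsk1, the convertase that cleaves prohormones, was -0.15, -0.30 and -0.20 log2 from control, Vgf, a granule protein gene, 0.09, 0.13 and 0.37, and Chgb, the chromogranin B gene, 0.28, 0.23 and 0.01.

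Downstream of the receptors, the cyclic AMP and arrestin list had a median of 0.05 log2 over 25 genes, with 11 above control and 4 below on all 3 arrays (33.2% and 22.5% of all genes) and 1 at an unadjusted p under 0.05 (10.8% of all). That gene was Adcy8, a calcium-stimulated adenylyl cyclase, at -0.31, -0.40 and -0.48 log2 from control (limma adjusted p = 0.375). In the trend Adcy8 was again the 1 gene under 0.05 (limma unadjusted p = 0.0182, adjusted p = 0.732), against 6.52% of genes past the filter. Like Crhr1, it was lower at each larger cell number. Adcy3 was 0.23, 0.27 and 0.10 log2 above control and Rapgef3, a cyclic AMP-activated exchange factor gene, 0.05, 0.32 and 0.11. The other class B receptor genes had a median of 0.13 log2 over 13 genes, with 6 above and 2 below on all 3 arrays. In the tumour comparison 2 of 7 tested had an unadjusted limma p under 0.05. In the trend 1 of the 7 did, Vipr2 (limma unadjusted p = 0.049, adjusted p = 0.765). Vipr2, a receptor gene for VIP, was 0.40, 0.31 and 0.47 log2 above control and Ghrhr, the receptor gene for growth hormone-releasing hormone, 0.40, 0.39 and 0.30, while Calcrl was -0.17, -0.63 and -0.31. Ghrhr is also a pituitary gene, and pituitary markers had medians of 0.25, 0.35 and 0.20 log2 over 8 genes and mean levels of 6.06 log2 in the control against 7.22, 6.38 and 6.18, and the part of pituitary tissue was not tested.

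In the corticotroph and adrenal list, 5 of 9 genes were above control on all 3 arrays and 4 below (33.2% and 22.5% of all genes), with a median of 0.06 log2. Pomc, the precursor of adrenocorticotropic hormone and, in arcuate neurons, of melanocortins, was -0.20, -0.21 and -0.46 log2 from control (limma adjusted p = 0.476). Tbx19, the corticotroph transcription factor, was -0.20, -0.02 and -0.72 log2 from control and below the filter. Both were lowest on the array of 2M, where Crhr1 was lowest and Crh highest, and a relation among them was not tested. Mc2r, the adrenal receptor gene for adrenocorticotropic hormone, had a control level of 3.96 log2, far below the filter, and exceeded it by 0.13, 0.70 and 0.43 log2. In the tumour comparison the list had 0 genes at an unadjusted limma p under 0.05 among the 2 tested. In the trend 1 was under 0.05, Pomc (limma unadjusted p = 0.00937, adjusted p = 0.682), against 6.52% of genes past the filter.

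The glucocorticoid feedback list, whose shift was known from earlier results of these data, had the highest median of the pathway lists, 0.26 log2 over 16 genes. It had 10 above control on all 3 arrays, against 33.2% of all genes, and 4 below, near the 22.5% of all genes. An unadjusted limma p under 0.05 was found for 7 of 15 tested in the tumour comparison, against 10.8% of all. In the trend it was found for 4 of 15, against 6.52% of all genes past the filter, and 0 passed adjustment. By cell number its medians were 0.19, 0.28 and 0.29 log2. Nfkbia, an inhibitor of NF-kB induced by glucocorticoids, was 0.31, 0.57 and 0.55 log2 above control, Sgk1 0.33, 0.38 and 0.59, and Klf9 0.37, 0.56 and 0.33 (limma adjusted p = 0.375 for each). These genes were above control at 0.5M and 1M, where Crh was below it, and at 2M, where Crh was above it. A relation of these genes to Crh was not tested. Receptors for inputs to CRH neurons had a median of 0.11 log2 over 15 genes, with 7 above and 2 below. In the tumour comparison 3 of 10 tested had an unadjusted limma p under 0.05. In the trend 1 of the 10 did, Ptger4 (limma unadjusted p = 0.0148, adjusted p = 0.714). Adra1b, a noradrenaline receptor gene, was 0.29, 0.35 and 0.35 log2 above control, Ptger4, a prostaglandin E2 receptor gene, 0.14, 0.38 and 0.42, and Il6ra, the interleukin-6 receptor gene, 0.20, 0.43 and 0.29 (limma adjusted p = 0.375, 0.46 and 0.433). The remaining marker lists had medians of 0.01 log2 (thalamus, 6 genes), 0.29 (striatum, 5 genes) and 0.23 (blood, 6 genes). In the blood list 4 of 6 genes were above control on all 3 arrays and 0 below. Ppbp was 1.03, 1.33 and 1.38 log2 above control and Alas2 0.94, 0.83 and 0.79 (limma adjusted p = 0.119 for each). S100a9, below the filter, was 0.14, 0.17 and 0.45 log2 above. The part of blood in the arrays was not tested. The striatal list was led by the array of 0.5M, at 0.48 log2 against 0.19 and 0.17.

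**Figure D4:**
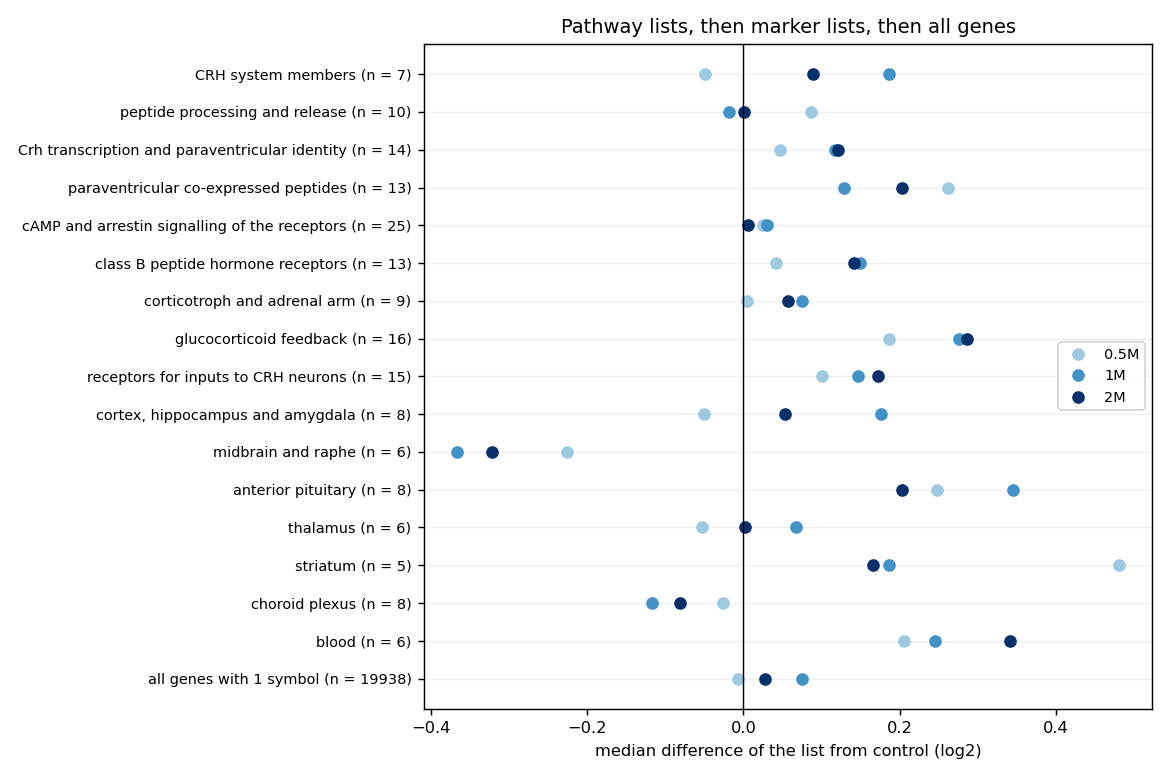
Median difference from control in log2 of each gene list, with 1 point per cell number and the count of measured genes in brackets. The glucocorticoid feedback list lies at 0.19 to 0.29, the 7 CRH system genes at -0.05, 0.19 and 0.09, and all 19938 genes at -0.01, 0.07 and 0.03.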

How the data were processed

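Hypothalamic RNA was measured on 4 whole-transcript arrays from 100 ng of RNA each. The table deposited by the authors holds log2 values made with RMA, per the submitters' processing notes. For the RMA version and the genome build, the entry is: not given in the sources used here. Quantile alignment in RMA removes any change common to all genes. Of 35556 probe sets, 21789 carried exactly 1 symbol, and the probe set with the highest mean stood for each gene. Table columns with no sample numbered 0.

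Two-sided tests used limma 3.58.1 in R 4.3.3 (lmFit, eBayes, Benjamini-Hochberg adjustment over all genes past the filter, threshold 0.05). They compared 3 tumour-bearing arrays with 1 control array, and fitted a slope on cell number with the control at 0. Each had 2 residual degrees of freedom. The control, being 1 array, is taken to vary as the tumour-bearing arrays do, so the p-values rest on the spread between cell numbers and pool sizes. The fit was tested on simulated arrays of 11963 genes, with noise drawn alike for all arrays, the control included. In the tumour comparison 88 of 100 genes changed by 1 log2 and 100 of 100 changed by 2 log2 were recovered. There were 5 false calls. Smaller changes, such as the mean differences of the members, were not simulated, so the recovery does not apply to them. Differences between single arrays have no p-value and were counted at 0.5 log2. Alternatives were other filters and alignments, probe set averaging, a rank scale, a variance trend, a 0.3 log2 threshold and leaving out each tumour-bearing array. Counts were made with pandas 2.3.3 and numpy 2.4.6 in Python 3.11.15, and plots with matplotlib 3.10.9.

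The members and the gene lists were chosen with earlier results of these data known. Besides the 7 members, the rule named the 3 genes per list with the largest absolute mean difference and the 4 genes nearest to any member at least 0.5 log2 from control. Not all of those of the marker lists are given here. Some genes of the lists were not analysed here, and each list's count gives the genes measured.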

Additional observations from a re-analysis of the deposited data

Results flagged for a closer look

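Crh lay 0.67 log2 above control on the array of 2M and 0.21 and 0.20 log2 below control on those of 0.5M and 1M. It stands out because the cell numbers went opposite ways. The lower side was small: 11.2% and 11.7% of all genes lay at least as far below control at 0.5M and 1M. At 2M, 0.461% lay at least as far above. Crh also lies below the filter on low values. The difference between them was not tested, since each is 1 array and all share the control. The 2M array is 1 mouse.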

How the results depend on the processing

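Members passing limma numbered 0 under every alternative run, in both tests. The peptide genes were tested only in the fit without the filter, so their 0 in the filtered runs was fixed. With the 60th percentile filter Crhbp was the only member tested. The counts of members at least 0.5 log2 away, 0, 0 and 1, were the same under cyclic loess, median centring and probe set averaging. With the 0.3 log2 threshold 1 member was counted at 1M and 2 at 2M, and among genes past the filter 0 at 2M, since Crh lies below it. Genes counted at 0.5M, 1M and 2M numbered 1784, 4225 and 2943 with 0.3 log2, and 102, 451 and 297 past the filter. The 6 genes called in the tumour comparison became 1 without the filter, 2 with the 60th percentile filter, and 3 to 6 when each array was left out (3 without 1M). The trend called 0 to 58 genes when each array was left out, 38 without 0.5M and 58 without 1M, each with 1 array fewer. The mean difference of Crhr2 turned to -0.0069 log2 with cyclic loess and ranged from -0.00094 (without 2M) to 0.036 when each array was left out. When each array was left out, the slope of Crhbp ranged from -0.036 to 0.19, turning without 2M, and the cause was not tested. The mean difference of Ucn was -0.02 log2 with cyclic loess and -0.06 without 1M, and the slope of Ucn3 without 2M was 0.46. Each group had 1 array, so 1 mouse or pool cannot be told apart from its cell number. No paired analysis was possible because each group had 1 array and the labels give no replicate numbers.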

Other observations

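Beside Crh, 13 genes stood at least 0.5 log2 above their highest other array on the array of 2M, and they were looked up after their values were seen. Npy, the orexigenic peptide gene of arcuate neurons, was 1.00 log2 above its highest other array, and Ccn2, a matricellular protein gene, 1.05. Cyp4a12b, a cytochrome P450 gene, led the group at 1.39 log2. Hspb1, a small heat shock protein gene, was 0.62 log2 above its highest other array, Apod, the apolipoprotein D gene, 0.56, and Fbln5, an elastic fibre protein gene, 0.52. Phyhd1 was 0.64 log2 above its highest other array. The gap to the highest other array does not show where a gene stood against control at lower cell numbers. At 0.5M and 1M Phyhd1 was 0.66 and 0.72 log2 above control, and Fbln5 0.66 and 0.53. Ccn2 was 0.14 and -0.21 log2 from control there. Of the 14, Npy, Ccn2, Phyhd1, Hspb1, Apod, Fbln5 and Ms4a6c passed the filter on low values. Crh, Cyp4a12b, Svs2, Pramel15, Ubqln5, Olfr963 and 1700010H22Rik did not.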
